A study of Drosophila melanogaster with 3 samples.

Results

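MicroRNA (miRNA) genes of the fruit fly were examined for peaks of E(bx), the largest subunit of the nucleosome remodelling complex NURF. The members are the genes whose symbol starts with mir- in the dm6 gene models, among them the let-7 gene, which the annotation calls mir-let7. There were 260 of them among the 17683 annotated genes on the 6 main chromosome arms. A hairpin that lay wholly inside another gene, on either strand, was called intragenic (209 genes) and every other hairpin intergenic (51 genes). A gene's start is the annotated 5′ end of its hairpin, and the measurement is the distance from there to the nearest peak summit. The rule for members uses gene symbols and gene models alone, though it was set with earlier results of these data known.

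All libraries belonged to 1 group of 3 biological replicates, so nothing was compared between treatments. The embryos were whole Drosophila melanogaster embryos of 0 to 16 h, males and females pooled, from a transgenic line that stably carried E(bx) with green fluorescent protein (GFP) fused to its C terminus. The description names an antibody against GFP and the antibody field names E(bx). Chromatin was sonicated to 200 to 800 bp, precipitated and sequenced. The labels do not say whether untagged E(bx) was also present or how many insertions the line has. Embryos of this age range hold many cell types and stages, and a peak does not tell in which of them the protein was bound. The caller had used a control whose data are not analysed here, so loci that precipitate with any antibody cannot be told apart from sites of E(bx). The lists hold no read totals, so the depth is unknown and no counting interval was given.

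MiRNAs are made from hairpins in longer primary transcripts. In the nucleus Drosha and its partner Pasha cut the hairpin out, Dicer-1 then trims it in the cytoplasm, and 1 strand is loaded into Argonaute-1, which it guides to messenger RNAs that pair with its seed, the bases 2 to 8 of the miRNA. Many hairpins sit in introns or exons of host genes and are transcribed from the host's promoter, and mirtrons are hairpins whose ends are the splice sites of a short intron. The start of a hairpin is therefore usually not the start of its primary transcript, which is why a window of 5000 bp was used beside that of 500 bp.

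All 260 genes had at least 1 mature miRNA in the RefSeq annotation of Release 6, 481 in all with 426 different seeds, of which 33 were shared by more than 1 gene. The mature arms below belong to the miRNAs whose loci are described most fully, with the seed in capitals. They are shown because the results turn on their genes and so that shared seeds can be seen. The first set holds miRNAs with a summit near the hairpin and some that share a seed or a cluster with one of these.
miR-34-5p: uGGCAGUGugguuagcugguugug
miR-317-3p: uGAACACAgcuggugguauccagu
miR-279-3p: uGACUAGAuccacacucauuaa
miR-996-3p: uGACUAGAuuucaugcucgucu
miR-2c-3p: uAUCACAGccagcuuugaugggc
miR-13a-3p: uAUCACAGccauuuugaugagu
miR-2a-1-3p: uAUCACAGccagcuuugaugagc
miR-11-3p: cAUCACAGucugaguucuugc
miR-995-3p: uAGCACCAcaugauucggcuu
miR-998-3p: uAGCACCAugagauucagcuc
miR-92a-3p: cAUUGCACuugucccggccuau
miR-92b-3p: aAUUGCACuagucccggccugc
miR-982-5p: uCCUGGACaaauaugaaguaaau
miR-303-5p: uUUAGGUUucacaggaaacuggu
The second set comes from the let-7 complex, whose hairpins lay more than 10000 bp from any summit.
let-7-5p: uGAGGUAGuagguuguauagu
miR-100-5p: aACCCGUAaauccgaacuugug
miR-125-5p: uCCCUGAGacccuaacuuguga

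Sequence around the summit is shown for the 3 strongest peaks within 500 bp of an intergenic hairpin among the loci whose sequence is printed here, since these hairpins had no host whose promoter could hold the peak. Each is taken from the plus strand of the Release 6 genome, starts 100 bases to the left of the summit and ends at the last base before an annotated exon of the neighbouring protein-coding gene, which is transcribed to the right. Capitals mark 2 of the motifs searched, the TATA box (TATAAA) and the GAGA element (GAGAG).
mir-982 and mir-303, chrX:4366261-4366416, before CG3626: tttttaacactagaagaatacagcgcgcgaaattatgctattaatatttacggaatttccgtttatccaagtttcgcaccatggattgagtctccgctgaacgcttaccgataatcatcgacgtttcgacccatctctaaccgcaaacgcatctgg
mir-4942, chr3L:23339160-23339325, before ND-MLRQ: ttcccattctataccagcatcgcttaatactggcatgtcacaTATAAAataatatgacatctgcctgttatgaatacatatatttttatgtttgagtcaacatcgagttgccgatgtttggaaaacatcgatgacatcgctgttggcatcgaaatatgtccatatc
mir-193, chr3L:21574412-21574556, before EMC10: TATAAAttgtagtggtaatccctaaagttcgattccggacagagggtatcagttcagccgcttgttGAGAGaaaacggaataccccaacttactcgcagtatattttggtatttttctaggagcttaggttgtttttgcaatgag
The mir-4942 hairpin itself overlaps this stretch, whereas the mir-193, mir-982 and mir-303 hairpins lie to the left of theirs.

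Few miRNA hairpins had a peak at their start. Throughout, other non-coding RNA genes are those that the annotation classes as ncRNA and that are not miRNA genes. Non-coding genes of any other class, small RNA genes included, count only among all annotated genes. A summit of the reproducible set, the 9708 peaks kept by the authors' irreproducible discovery rate (IDR) procedure, lay within 500 bp of 31 of the 260 miRNA genes (11.9%), against 41.5% of all annotated genes and 12.1% of the 2520 other non-coding RNA genes. Within 5000 bp there was one for 148 miRNA genes (56.9%), against 66.7% of all annotated genes and 46% of the other non-coding RNA genes. The median distance to the nearest summit was 4134 bp for miRNA genes (quartiles 1114 and 8351 bp), against 640 bp for protein-coding genes and 5938 bp for other non-coding RNA genes. At 500 bp the share of miRNA genes was thus near that of other non-coding RNA genes, and at 5000 bp it lay between theirs and that of all genes. Sequence within 500 bp of a summit made up 6.2% of the arms, and sequence within 5000 bp made up 36.6%.

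**Figure D1:**
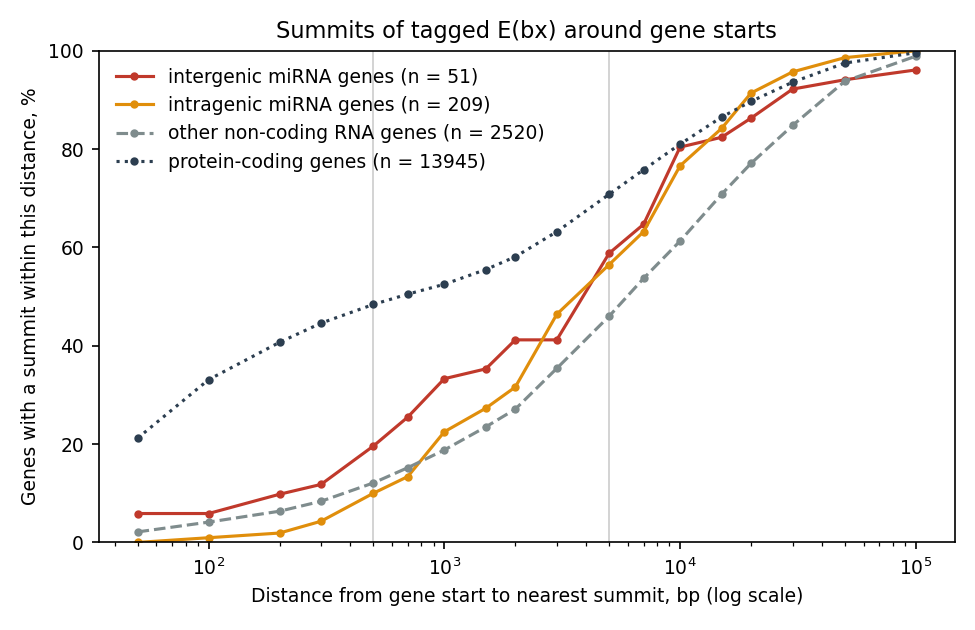
Share of genes (percent, y axis) with a summit of the reproducible set within a given distance of their start (bp, log x axis) for intergenic and intragenic miRNA genes, other non-coding RNA genes and protein-coding genes, with grey lines at 500 and 5000 bp. At 500 bp the points are 19.6% for intergenic and 10% for intragenic miRNA genes, against 12.1% for other non-coding RNA genes and 48.4% for protein-coding genes.

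Intergenic hairpins had a summit within 500 bp in 10 of 51 cases (19.6%) and intragenic ones in 21 of 209 (10%). The gap was smaller under other class definitions. With only same-strand hosts counted as intragenic, the shares were 11 of 78 (14.1%) and 20 of 182 (11%). With only hairpins inside protein-coding genes counted so, they were 14 of 94 (14.9%) and 17 of 166 (10.2%). The 10 intergenic genes shared 7 peaks, since mir-310, mir-311 and mir-312 lay beside the same summit, as did mir-982 and mir-303. Within 5000 bp both classes were alike, with 30 intergenic genes (58.8%) and 118 intragenic genes (56.5%). Hairpins with a host on their own strand had a summit within 500 bp in 20 of 182 cases (11%), and those inside a gene of the opposite strand only in 1 of 27 (3.7%), which was mir-4957 near the start of Top1, the gene for DNA topoisomerase 1. Of 34 mirtron-like hairpins, whose ends lay within 5 bp of those of an intron, 5 had one (14.7%), namely mir-4910, mir-1008, mir-4918, mir-3641 and mir-3645.

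The share differed with whether another gene started nearby. Of the 51 miRNA genes with the start site of a gene that is no miRNA gene within 500 bp, 19 had a summit within 500 bp (37.3%), against 191 of 642 other non-coding RNA genes with such a neighbour (29.8%). Of the 209 miRNA genes with no such start nearby, 12 had one (5.74%), against 114 of 1878 other non-coding RNA genes (6.07%). Among intergenic hairpins alone the counts were 7 of 13 with a start nearby and 3 of 38 without. The 3 were mir-317, mir-312 and mir-982. The last 2 lay just beyond 500 bp from a start, 530 bp for mir-312, and beside the same peaks as genes counted among the 7. Among hairpins with a host on their strand, 10 of the 33 within 500 bp of a host start had a summit (30.3%), then 1 of 23 at 500 to 1000 bp, 8 of 68 at 1000 to 5000 bp, 1 of 46 at 5000 to 20000 bp, and 0 of 12 farther away.

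The 31 genes were served by 27 distinct peaks. Summits lay upstream of 23 of the hairpin starts and downstream of 8, at a median of −212 bp. At 10 genes the summit was also within 500 bp of a start site of the host, at 11 it was at the start of another gene only, and at the remaining 10 it was at no annotated start site. Of the 27 peaks, 18 (66.7%) had the start of a gene that is no miRNA gene within 500 bp, against 7187 of the 9708 peaks of the whole set (74%). The signal value is the authors' score for a peak, on a scale that the sources used here do not state. It had a median of 586 at the 27 peaks (range 218 to 2658), against 519 over the whole set. Signal values also differed between the libraries at similar ranks. A value of 68.4 ranked 7117 in replicate 1, 90.2 ranked 7177 in replicate 2 and 133 ranked 7085 in replicate 3. The libraries are therefore better compared by rank than by signal value.

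**Figure D2:**
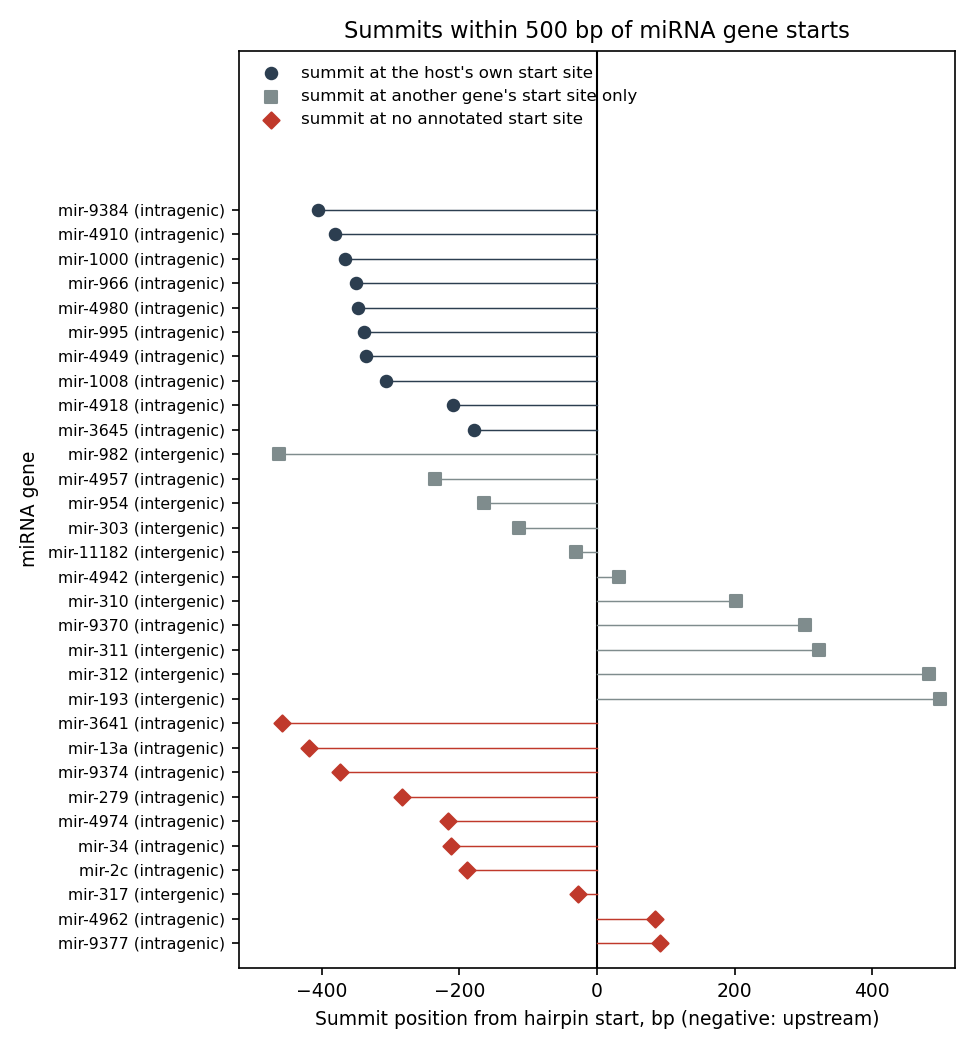
Position of the nearest summit from the hairpin's start (bp, x axis, negative values upstream on the hairpin's strand) for each of the 31 miRNA genes with a summit within 500 bp (y axis), coloured by whether the summit was at the host's own start, at another gene's start only, or at no annotated start. All 10 summits at a host's start lie upstream of the hairpin, and those at no start lie upstream for 8 of 10 genes.

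Among the peaks within 500 bp of a hairpin, the strongest at no annotated start was beside mir-34, which is known in flies for its role in the ageing nervous system. The hairpin (chr3R:10100936-10101034, plus strand) lies in an exon of lncRNA:CR43459, and the summit was 212 bp upstream of it and 6963 bp downstream of that gene's start. The peak had signal values of 407, 518 and 457 in replicates 1, 2 and 3 and ranked 966, 864 and 1220 in their own lists. In the reproducible set it had a signal value of 1384 and rank 931. The ranks in the 3 libraries lay close together, and the peak stood among the best 9708 of each.

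mir-34 forms a cluster with mir-317 and mir-277, the last known as a regulator of branched-chain amino acid breakdown in flies. The mir-317 hairpin (chr3R:10091126-10091217) is intergenic by the annotation, 2635 bp before the start of lncRNA:CR43459, and had a summit 27 bp upstream, the closest of any miRNA gene. Its signal values were 120, 125 and 139 in replicates 1, 2 and 3 and 370 in the reproducible set (rank 6101). The annotated start of lncRNA:CR43459 had a peak of its own with a signal value of 565, and stood between the other 2 in position and in strength. The mir-277 hairpin shared the mir-34 peak as its nearest, at 702 bp downstream. From the summit beside mir-317 to the one beside mir-34 there were thus 3 summits, of which the one at mir-34 was the strongest. None of them was within 500 bp of mir-277. More summits lay before mir-317, at −1527, −1747 and −3686 bp from its start, with signal values of 362, 576 and 930.

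The mir-279 hairpin (chr3R:29215585-29215684), whose miRNA is known in flies for limiting the formation of carbon dioxide sensing neurons, lies in an exon of lncRNA:CR31044 together with mir-996. A summit lay 284 bp upstream of mir-279, with signal values of 48.7, 85.3 and 131 in replicates 1, 2 and 3 and ranks of 8428, 7404 and 7126. The host's start had another peak, with 468 in the reproducible set against 265 for the one beside the hairpin. mir-996 was 1883 bp from the nearer summit. The peak beside the hairpin was among the best 9708 in each library, with its worst rank in replicate 1 and its best in replicate 3.

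The cluster of mir-2c, mir-13a and mir-13b-1 (chr3R:15417408-15417845, minus strand) lies in an exon of lncRNA:CR45911, and these miRNAs belong to the family known in flies for repressing pro-apoptotic genes such as reaper. A summit lay 189 bp upstream of mir-2c, 418 bp upstream of mir-13a and 559 bp upstream of mir-13b-1, which therefore fell just outside the window. The peak had a signal value of 168 in replicate 3, against 31 in replicate 1 and 16.8 in replicate 2. It ranked 10645, 23540 and 5933 in replicates 1, 2 and 3. It was thus among the best 9708 peaks of replicate 3 only, the sole such case among the 27 peaks, and without it 29 of the 260 miRNA genes had a summit within 500 bp.

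The other summits at no annotated start were inside protein-coding hosts. The mir-4974 hairpin in an intron of CG8671 had a summit 217 bp upstream, with signal values of 88.6, 141 and 136 in replicates 1, 2 and 3. The mir-9374 hairpin in an exon of Hr39, a nuclear receptor gene, had one 373 bp upstream with values of 101, 148 and 167. The mir-4962 hairpin in an intron of Tlk, the tousled-like kinase gene, had one 85 bp downstream with values of 40.1, 73.1 and 129. All 3 peaks were among the best 9708 in every library. The mir-9377 hairpin in an intron of Tis11, a gene for an mRNA decay factor, had a summit 91 bp downstream with signal values of 93.6, 155 and 186. The mir-3641 hairpin in an intron of CG3630 had one 458 bp upstream with values of 181, 177 and 267. The host CG3630 was the only one of these 5 that had no peak at any of its own starts.

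The 10 genes whose summit was at their host's start lay close to the beginning of the host, between 117 and 364 bp from one of its start sites. The strongest was mir-4949 in an exon of ATPsynC, which encodes subunit c of the mitochondrial ATP synthase, with signal values of 572, 679 and 582 in replicates 1, 2 and 3. For mir-995 in an intron of Cdk2, the gene of a cell cycle kinase, they were 319, 439 and 262. For mir-4980 in an intron of CanB2, a calcineurin B gene, they were 346, 425 and 240. In all 3 cases the summit lay 35 to 78 bp before the host's start and was among the best 9708 peaks in every library. The mirtron-like hairpin of mir-4918 in tex, a gene of the THO complex for mRNA export, had 282, 398 and 407, and that of mir-4910 in CG3225 had 253, 314 and 535. mir-9384 in tacc, the gene of a centrosome protein, had 167, 206 and 475. The last 2 ranked best in replicate 3, at 671 and 1063. mir-3645 in Mlc-c, a myosin light chain gene, ranked 3791, 3324 and 5146 in replicates 1, 2 and 3, with the summit 53 bp before the start of the neighbouring gene Pop1. mir-966 in Pfas, a gene of purine synthesis, had 162, 204 and 152, and mir-1008 in CG18004 had 75.2, 108 and 178. mir-1000 was the one of the 10 with a non-coding host, lncRNA:CR45910, and had 107, 121 and 144.

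Of the 7 peaks at intergenic hairpins, 6 were at the start of a neighbouring gene, and the exception was the one at mir-317. The strongest peak at any miRNA gene lay 113 bp upstream of mir-303 and 463 bp upstream of mir-982, and 56 bp before the start of CG3626, which runs the other way. It had signal values of 817, 1020 and 852 in replicates 1, 2 and 3, ranks of 86, 62 and 25 there and rank 49 in the reproducible set. All 3 libraries placed it among their strongest peaks. The mir-4942 hairpin had a summit 32 bp inside it and 66 bp before ND-MLRQ, a gene for a mitochondrial complex I subunit, with values of 470, 519 and 199. Its rank was 636, 863 and 5185 in replicates 1, 2 and 3, so that replicate 3 placed it far lower than the others did.

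The remaining intergenic members had weaker peaks. The mir-193 summit, 498 bp downstream and just inside the window, was 45 bp before a start of EMC10 and had values of 212, 269 and 355 in replicates 1, 2 and 3. The mir-954 summit on chromosome 4 lay 165 bp upstream of the hairpin, near the start of mav, a TGF-beta family ligand gene, with 51.8, 59.6 and 133. The mir-11182 summit lay 31 bp upstream, within 500 bp of the starts of CG5726 and nopo, with 137, 168 and 263. All of these were among the best 9708 peaks in each library. Their ranks were best in replicate 3, at 2340 for mir-193, 7085 for mir-954 and 3851 for mir-11182. In the same order they were 3186, 8155 and 4825 in replicate 1 and 3115, 8972 and 4960 in replicate 2. The opposite-strand mir-4957 had 194, 316 and 305 at the start of Top1. mir-9370, in an exon of Amun, had 232, 288 and 346 at the start of the neighbouring gene FucT6, a fucosyltransferase gene.

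The miRNA genes just outside the window included mir-92a at 506 bp, mir-13b-1 at 559 bp and mir-313 at 622 bp, against mir-193 at 498 bp and mir-312 at 483 bp just inside. The mir-92a summit was at a start of its host jigr1 and had a signal value of 1453, more than any member inside the window but the peaks at mir-303 and mir-4949. The count of 31 thus turns on the position of the window's edge at several loci.

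**Figure D3:**
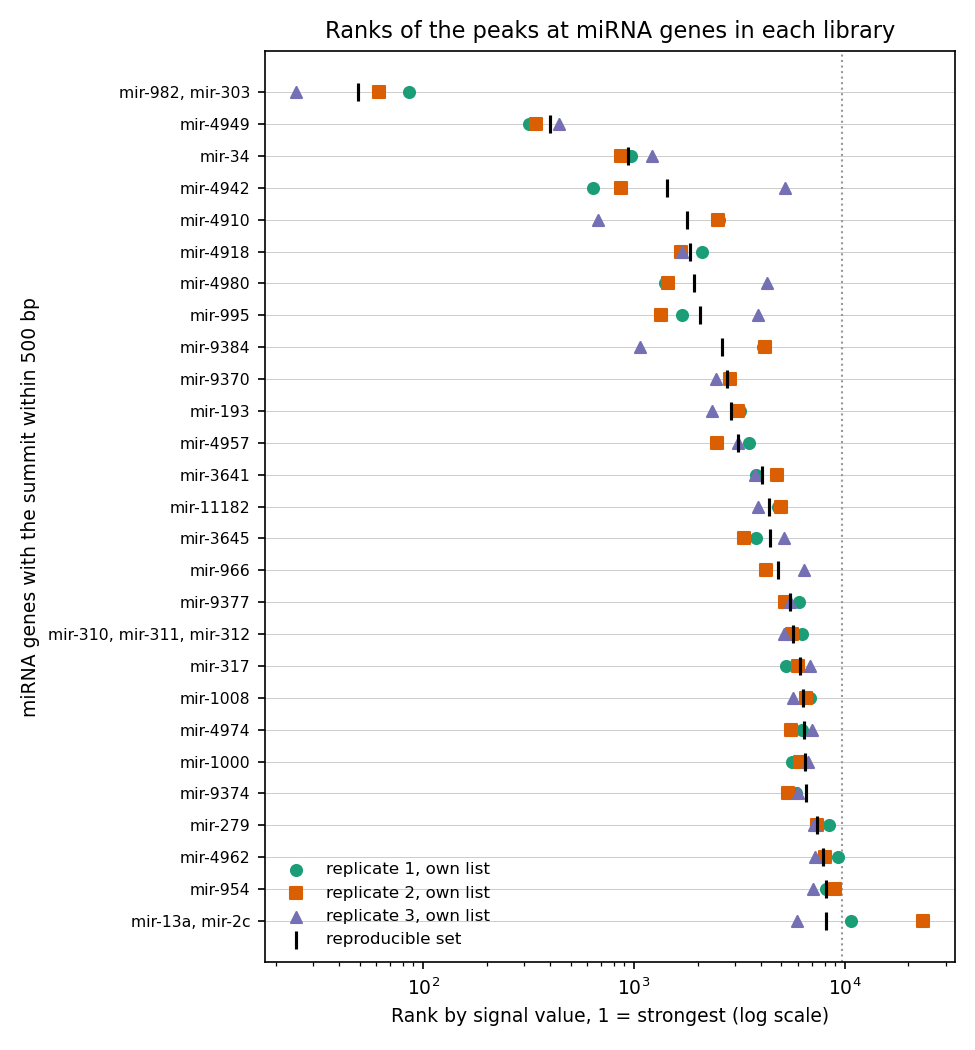
Rank by signal value (x axis, log scale, 1 is the strongest peak) of the 27 peaks within 500 bp of a miRNA gene's start (y axis), in each library's own list (coloured symbols) and in the reproducible set (black bars), with a dotted line at rank 9708. The 3 libraries lie left of the line for 26 peaks, and the peak at mir-13a and mir-2c is left of it in replicate 3 only.

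The libraries gave nearly the same members. In their own best 9708 peaks, replicates 1, 2 and 3 had a summit within 500 bp of 28, 31 and 31 miRNA genes (mean 30 ± 1.73, SD, n = 3), of which 27, 29 and 30 were among the 31 of the reproducible set. Over all annotated genes the shares were 41.5%, 41.6% and 40.4%. The counts within 5000 bp were 155, 150 and 146 miRNA genes (mean 150 ± 4.51, SD, n = 3). In every library 27 of the 31 genes were within 500 bp of a summit, and the others were mir-312, mir-193, mir-13a and mir-2c. Genes found within 500 bp in 1 library's best peaks but not in the reproducible set were mir-14 in replicate 1, mir-4985 and mir-4950 in replicate 2 and mir-9388 in replicate 3. The reproducible set was made from these same libraries, so its presence in each is a description.

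Clusters of hairpins, here hairpins on 1 strand with neighbours within 10000 bp, numbered 22 and held 79 of the 260 genes. Of the 22, 5 had a member within 500 bp of a summit. With each cluster or lone hairpin counted as 1 unit, it was 26 of 203 units (12.8%). A cluster has more hairpins that can lie near a summit, and the part of this was not tested. Among the 5, the cluster of mir-2c, mir-13a and mir-13b-1 rested on the peak that ranked 10645, 23540 and 5933 in replicates 1, 2 and 3. The cluster of mir-992, mir-991, mir-2498, mir-313, mir-312, mir-311 and mir-310 (chr2R:20583752-20585405, minus strand) had no summit inside. Its nearest one lay past its downstream end, 202 bp from the start of mir-310, and 47 bp before the start of qsm, the next gene on that strand. That peak ranked 6234, 5604 and 5128 in replicates 1, 2 and 3. The nearest summit before the first hairpin, at −1923 bp from its start, had a signal value of 1081 and was near the start of Nnf1a, a kinetochore gene. Summits thus stood on both sides of this cluster, the stronger one upstream, and all 7 hairpins had one within 5000 bp.

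Other clusters had no peak close by. The 12 hairpins from mir-972 to mir-979 on X had their nearest summit 4237 bp away, and 6 of them had one within 5000 bp. The 8 hairpins of the mir-309 cluster, known in flies for clearing maternal mRNAs in the early embryo, lay in lncRNA:CR44504, whose start had no peak, and the nearest summit was 7285 bp upstream. The 6 hairpins from mir-959 to mir-964 were 16721 bp from the nearest summit. mir-100, mir-let7 and mir-125, which time metamorphosis, lay in lncRNA:let7C with no peak at its starts. The nearest summit upstream was at −16806 bp from mir-100 and the nearest downstream 12481 bp past the start of mir-125, with none between.

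Clusters inside protein-coding hosts had their nearest summits at various distances. For those in spi, Gmap and grp the nearest summit was not within 500 bp of a start site of the host. mir-2b-2, mir-2a-1 and mir-2a-2 lay in spi, the gene for the EGF receptor ligand Spitz, which had a promoter peak (signal value 836), and their nearest summit was 1747 bp upstream of mir-2b-2. mir-283, mir-304 and mir-12 lay in Gmap, a Golgi protein gene with a promoter peak of 587, and were 3742, 2739 and 2225 bp from the nearest summit. mir-9c, mir-306, mir-79 and mir-9b lay in grp, which encodes the checkpoint kinase Chk1 and had a promoter peak of 622, with the nearest summit 7309 bp upstream of mir-9c. mir-984, mir-983-2 and mir-983-1, which have no host on their strand and form the rest of the cluster of mir-303 and mir-982, had that cluster's strong summit within 5000 bp.

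**Figure D4:**
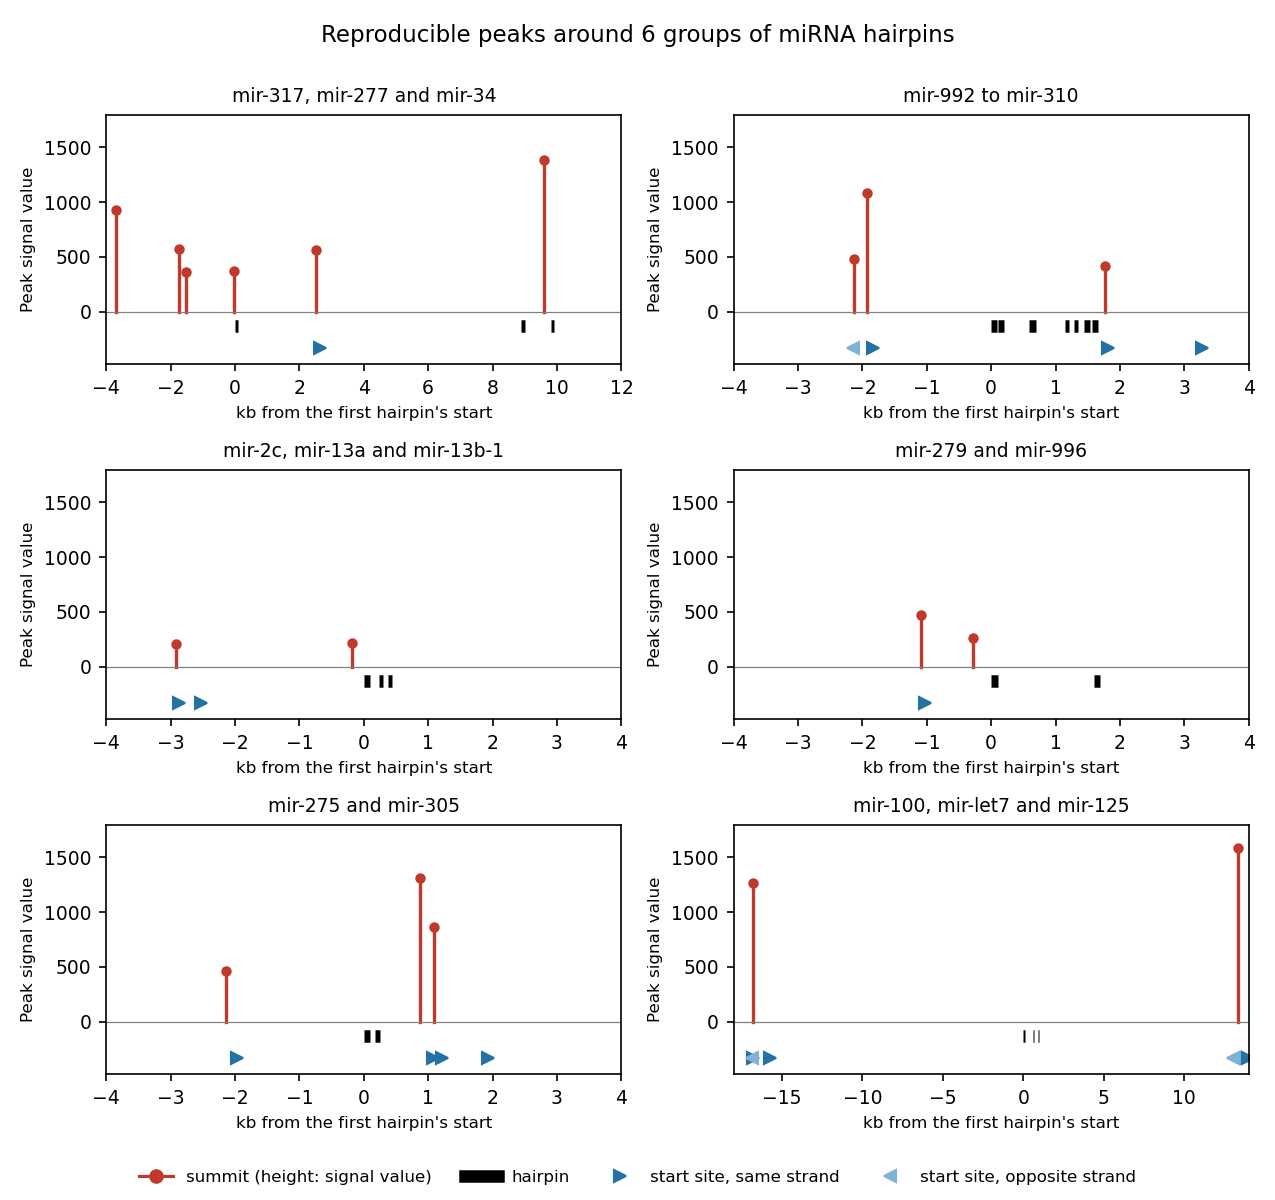
Reproducible peaks (red, height is the signal value on the y axis) around 6 groups of hairpins (black bars), with start sites of other genes on the same strand (dark arrows) and on the opposite strand (light arrows), against the distance in kb from the first hairpin's start in the direction of transcription. Summits stand 212 bp before mir-34 and 27 bp before mir-317 with no start site beside them, while the hairpins of the let-7 complex have none within 10000 bp.

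A list of 44 miRNAs with known or studied roles in development had 4 genes with a summit within 500 bp (9.09%), mir-34, mir-279, mir-2c and mir-13a, against 11.9% of all miRNA genes and 41.5% of all annotated genes. Within 5000 bp there were 31 (70.5%), against 56.9% of all miRNA genes and 66.7% of all annotated genes. The median distance was 2080 bp, against 4134 bp for all miRNA genes. The list holds some clusters whole, such as mir-2c, mir-13a and mir-13b-1, whose hairpins share their nearest summit. From the mir-309 cluster of 8 hairpins, which had 0 within 5000 bp of a summit, it holds mir-309 only. The part of this uneven listing in the share and the median was not tested. Next in distance after the 4 genes within 500 bp were mir-92a (506 bp), mir-13b-1 (559 bp), mir-305 (701 bp) and mir-282 (740 bp). mir-8, which acts in Wingless signalling and body growth, had a summit 857 bp upstream with a signal value of 228, and mir-14, which limits cell death, had one 979 bp upstream with 165. mir-278 had one 857 bp downstream with 685. mir-275 and mir-305 shared a summit with 1310, at 878 and 701 bp downstream and before the start of muc, a pyruvate dehydrogenase subunit gene.

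The Hox miRNAs mir-iab-4 and mir-iab-8 are made from opposite strands of 1 hairpin site in the bithorax complex. Their nearest summit was the same one, with a signal value of 612, at 931 and 864 bp. mir-10 in the Antennapedia complex had one 1252 bp upstream with 365. Among tissue miRNAs, mir-1 of muscle was 7110 bp from the nearest summit and mir-124 of neurons 23661 bp. mir-133 was at 22049 bp and mir-276a at 43327 bp. mir-7, known from photoreceptor development and placed in HnRNP-K, was at 2623 bp. mir-9a, which restrains sense organ precursors, was at 4089 bp. mir-11 and mir-998 lie in E2f1, a cell cycle transcription factor gene with a promoter peak of 1187. Their nearest summit was another one with 209, at 2672 and 2122 bp downstream. mir-33 in SREBP, a regulator of lipid synthesis, was at 3335 bp. mir-bft, listed as mir-263a and known for its role in bristles of the eye, was at 4822 bp and mir-263b at 6020 bp.

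The rest of the list spread over the same range. mir-308 in RpS23, a ribosomal protein gene, was 893 bp from the nearest summit, mir-92b was at 870 bp and mir-13b-2 in CCT2 at 1794 bp. mir-31a was at 1950 bp, mir-989 at 4251 bp, mir-315 at 4966 bp and mir-137 at 5841 bp. mir-184, known from the female germline, was at 7979 bp, mir-2b-1 in the kinase gene Btk at 8232 bp and mir-316 at 11144 bp. The list's members thus reached from 189 bp for mir-2c to 43327 bp for mir-276a.

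Distances within seed families varied in some families and less in others. The seed AUCACAG, shown above for miR-2c, miR-13a, miR-2a and miR-11, was shared by 14 genes, of which 2 had a summit within 500 bp and 9 within 5000 bp. Over all miRNA genes these shares were 11.9% and 56.9%. The 2 were mir-2c and mir-13a, which share 1 peak that ranked 10645, 23540 and 5933 in replicates 1, 2 and 3. Among the 9, mir-13b-1 shares that peak too, and mir-2a-1, mir-2a-2 and mir-2b-2 share another. Genes that share a peak are not separate cases. The seed AUUGCAC of miR-92a and miR-92b was shared by 6 genes, the others being mir-310, mir-311, mir-312 and mir-313. Of these 3 had a summit within 500 bp and all 6 within 5000 bp, from 202 bp for mir-310 to 870 bp for mir-92b, but mir-310 to mir-313 share 1 peak and are not separate cases. GACUAGA was shared by mir-279, mir-996 and mir-286, of which mir-279 was at 284 bp, mir-996 at 1883 bp and mir-286, in the mir-309 cluster, beyond 5000 bp. AGCACCA was shared by mir-995, mir-998 and mir-285, of which only mir-995 was within 500 bp.

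The 5 miRNA genes farthest from any summit were mir-10404-5 (432319 bp), mir-10404-4 (185486 bp) and mir-10404-3 (99195 bp) on X, mir-284 in Octbeta2R (75440 bp) and mir-4973 in lncRNA:CR45347 (67747 bp). The mir-10404 genes are near-identical copies inside ribosomal RNA gene repeats, where reads often cannot be placed uniquely. Whether peaks could be called there was not tested.

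A larger share of host genes than of all genes of their kind had a promoter peak. A promoter peak is a summit within 500 bp of any annotated start site of a gene. Of the 165 hosts on the hairpin's strand, 102 had one (61.8%). Among protein-coding hosts it was 89 of 128 (69.5%), against 50.3% of all protein-coding genes, and among non-coding hosts 13 of 37 (35.1%), against 12.5% of other non-coding RNA genes. Both comparison groups include the hosts themselves. In the libraries' own best peaks protein-coding hosts reached 69.5%, 72.7% and 71.1% in replicates 1, 2 and 3 (mean 71.1% ± 1.6, SD, n = 3), against 50.3%, 50.3% and 49% for all protein-coding genes (mean 49.9% ± 0.751, SD, n = 3). For non-coding hosts they were 37.8%, 35.1% and 35.1%, against 12.7%, 12.9% and 12%. The share of hosts was the higher one in each of the 3 libraries, for both kinds of gene.

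Hosts also differed in size from the same comparison groups, which include them. Protein-coding hosts had a median length of 14094 bp and 2.21 start sites on average, against 2166 bp and 1.41 for all protein-coding genes. Non-coding hosts had 6436 bp and 1.65, against 706 bp and 1.06 for other non-coding RNA genes. A gene with more start sites has more places where a promoter peak can be counted, and the part of length and start sites in the higher share was not tested.

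**Figure D5:**
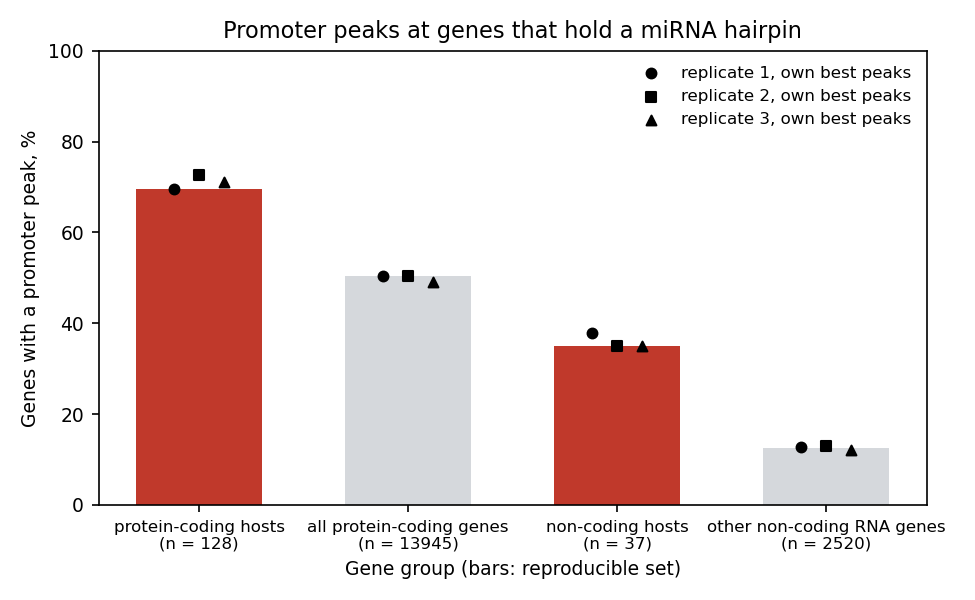
Share of genes with a promoter peak (percent, y axis) for protein-coding hosts of miRNA hairpins and all protein-coding genes, and for non-coding hosts and other non-coding RNA genes, with bars for the reproducible set and symbols for each library's own 9708 best peaks. Hosts stand at 69.5% and 35.1%, against 50.3% and 12.5% for the genes of their kind.

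Among the non-coding hosts with a promoter peak, lncRNA:CR43650, the host of mir-8, had a signal value of 807 and lncRNA:CR43314, the host of mir-bft, had 787. lncRNA:iab8, the host of mir-iab-8, had 756, and lncRNA:CR43857, the host of mir-275, had 463. The weakest were lncRNA:CR43626 at 166 and lncRNA:CR43651 at 165, the hosts of mir-282 and mir-14. The hosts of mir-1, mir-124, mir-9a, mir-10, mir-315, mir-316, mir-276a and mir-iab-4 had no promoter peak, nor did lncRNA:let7C or lncRNA:CR44504.

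The list of miRNA pathway genes also held chaperone, cap-binding, deadenylase and decapping genes and genes of the small interfering RNA branch. It was chosen with earlier results of these data known, and the part of start-site number in its share was not tested. Of its 29 genes, 28 had a promoter peak, against 50.3% of all protein-coding genes. For nuclear processing and export it was 6 of 6. drosha, the gene of the nuclear nuclease, had signal values of 347, 432 and 383 in replicates 1, 2 and 3, and pasha, that of its RNA-binding partner, had 164, 234 and 357. The others were Ranbp21, the exportin-5 gene, and the cap-binding complex genes Ars2, Cbp80 and Cbp20, with 1053, 1115, 521 and 1228 in the reproducible set. For dicing and loading it was 6 of 6 too. AGO1 had the strongest peak of the list, with 845, 1039 and 855 in replicates 1, 2 and 3 and rank 37 in the reproducible set. Dcr-1 had 228, 235 and 271, and its cofactor loqs had 63.7, 120 and 196. These peaks were present in all 3 libraries.

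The chaperone genes Hsp83, Stip1 and Fkbp59, which help to load Argonaute, had signal values of 812, 1253 and 1315 in the reproducible set. All 11 silencing effectors had a promoter peak. gw, the GW182 gene that links Argonaute to deadenylation, had 668, 673 and 181 in replicates 1, 2 and 3, much lower in replicate 3 than in the others. me31B, an RNA helicase gene, had 579, 581 and 328, and Pop2, a deadenylase gene, had 550, 636 and 775. The deadenylase complex genes Not1, twin, Rga and Not3 had 1301, 757, 782 and 613 in the reproducible set. The decapping genes DCP1, DCP2 and Ge-1 had 1375, 322 and 690, and pAbp, the poly(A)-binding protein gene, had 1424. DCP2 was the weakest of the group.

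In the branch for trimming, tailing and small interfering RNAs it was 5 of 6. AGO2 had a signal value of 701, Dcr-2 1153, r2d2 1238, Hen1 630 and Tailor 1179. Nbr, which trims the 3′ ends of miRNAs, was the exception and had its nearest summit 522 bp away, just outside the window.

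Short sequence motifs were counted on both strands within 100 bp of the 27 summits and of all 9708. The DRE (TATCGATA), a motif of housekeeping promoters, was at 2 of 27 (7.41%), against 9.52% of all, at mir-995 and mir-11182. The GAGA element (GAGAG) was at 7 (25.9%), against 27.9%, and included the peaks at mir-13a, mir-954, mir-4962 and mir-9377. Ohler motif 1 (core GGTCACA), a core promoter motif, was at 4 (14.8%), against 10.4%. The E-box CAGCTG was at 5 (18.5%), against 16%, and the TATA box (TATAAA) at 6 (22.2%), against 25.6%, with both at mir-317, mir-4910 and the mir-310 peak. The early-embryo motif of Zelda (CAGGTAG) was at 0 of 27, against 0.855% of all. With 27 peaks, 1 more or fewer moves a share by several percentage points, and no difference was tested. The median GC content of the windows was 42.8% at miRNA genes, against 39.8% over all peaks.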

How the data were processed

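E(bx) with C-terminal GFP was immunoprecipitated from 3 biological replicates of whole fly embryos, 1 group per the labels. The deposited files used were the dm6 peak lists of each replicate, of the pooled reads and of the IDR set. The signal value in them is the authors' own score per peak, and the sources used here state no scale for it. Other columns hold the deposited coordinates and the summit offset. A control was used in peak calling, per the deposited file records. Not given in the sources used here were the aligner, the caller and the IDR cutoff. No depth is known, since the files hold no counts.

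A summit is the deposited start plus the offset. Distances were computed with Python 3.11.15, numpy 2.4.6 and pandas 2.3.3, and figures were drawn with matplotlib 3.10.9. The gene models were those of Ensembl release 115, without transposable elements and without the 481 mature miRNA entries. The annotation held 262 miRNA genes, of which 2 off the arms were left out. Positions count from 1. The counting was tested on simulated summits. Lists were matched by symbol, with 2 developmental miRNAs and 4 pathway genes matched through RefSeq synonyms (let-7 as mir-let7, mir-263a as mir-bft, Hop as Stip1 and Dcp1 and Dcp2 as DCP1 and DCP2 among them) and 0 unmatched. Sequences came from RefSeq's annotation and genome of Release 6. Some arms' sequences are not printed.

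No test was run, since the design has 1 group, and counts are set beside those of all genes of a kind. The members and lists were chosen with earlier results of these data known. Named are all miRNA genes with a summit within 500 bp, clusters of at least 3 hairpins, members of both lists, the 5 farthest genes and their hosts. Alternatives changed the window, the peak set, the reference point, the class definition and the replicates used. To leave out a replicate, IDR peaks with a summit within 200 bp among the best peaks of both others were kept.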

Additional observations from a re-analysis of the deposited data

How the results depend on the processing

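Of 77 alternative counts, 65 stayed within 1.5 times the reported one. The exceptions were all counts within 500 bp. For all miRNA genes, reported as 31, the count was 14 with a window of 250 bp and 64 with 1000 bp, 17 with only the 4854 strongest peaks, and 73 with the pooled list. For intragenic genes, reported as 21, these were 8, 47, 12 and 54, and for intergenic genes, reported as 10, they were 6, 17, 5 and 19. Window and list length set these counts by construction. Without a replicate the count was 29 in each of the 3 cases for all miRNA genes within 500 bp, 142 to 145 within 5000 bp, 19 for intragenic and 10 for intergenic genes, 96 to 99 for hosts and 28 for pathway genes. Leaving out a replicate cannot remake the IDR set. Depth is unknown, so a missing peak may lie under what these libraries could show. No paired analysis was possible because there is 1 group.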

Other observations

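Some loci outside the lists were named after their values were seen. lncRNA:CR43334, the host of mir-ban, which encodes the growth regulator bantam, had a promoter peak with a signal value of 245, and the hairpin was 6150 bp from its nearest summit. lncRNA:Hsromega, a stress-induced RNA gene that hosts mir-4951, had one with 980. The intergenic pair mir-994 and mir-318 shared a summit 818 and 983 bp upstream with a signal value of 646. mir-980, inside a gene of the opposite strand, was 665 bp from a summit with 1459 near a start of ewg.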
